A study of Mus musculus with 2 samples.

Results

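The 7 genes Lcn2, Saa3, Steap4, Hp, Ptx3, Serpina3n and Chil1 were followed across injured mouse brain as a set of acute-phase genes, out of 19070 genes listed in each section. They were selected on measured values, because they were high around the lesion in these same sections, so their levels in the lesion against the opposite side are given as a description. All 7 symbols were found in both sections. Spatial RNA was measured with Visium HD, a probe-based assay that counts unique molecular identifiers (UMIs, 1 per captured ligated probe) in squares of 16 µm on fixed, paraffin-embedded tissue. The brain came from male C57Bl6 mice, 3 months old, after controlled cortical impact (CCI), an injury made by driving a piston into the brain through an opening in the skull on one side. The tissue was taken 3 days after CCI for one section and 28 days after CCI for the other, and no sham section was analysed here. With 1 section per group there was no replicate, so no test was possible: intervals given below are exact 95% intervals that cover counting error only, and time after injury cannot be told apart from the animal or the section.

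The acute-phase response is the fast rise of defence and scavenging proteins that follows tissue damage or infection. It is driven by cytokines of the interleukin 6, interleukin 1 and tumour necrosis factor families, which act through the transcription factors STAT3, C/EBP and NF-κB, and it is best known in the liver, although injured brain mounts it too in astrocytes, vessels and invading cells. Lcn2 (lipocalin 2) binds bacterial siderophores and so withholds iron, Hp (haptoglobin) binds free haemoglobin, and Steap4 is a metalloreductase that handles iron and copper. Saa3 is a serum amyloid A protein, and Ptx3 (pentraxin 3) is a soluble pattern-recognition protein that marks particles for uptake. Serpina3n inhibits serine proteases and is widely used as a marker of reactive astrocytes, and Chil1 is a chitinase-like lectin whose human counterpart, YKL-40, is released by astrocytes and macrophages. Steap4 sits in the membrane and is not secreted, so it departs from the secreted nature of the other members.

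Promoters were available for 6 of the 7 genes from RefSeq (GRCm38.p6, the patched form of the mm10 build that the submitters' notes name). Stretches of Saa3 (chr7:46715677-46715826, minus strand), Steap4 (chr5:7960322-7960471, plus strand) and Ptx3 (chr3:66219737-66219886, plus strand) are shown. They were picked because, among genes outside the 7, the 28 day maps of these 3 genes were each closest to that of the same gene, Mmp3. The stretches run 5′ to 3′ from 150 bases before the annotated start of the transcript to the base before it. Capitals mark matches on either strand to the letters TTNNGNAA, written for C/EBP, or TTCNNNGAA, written for STAT.
Saa3: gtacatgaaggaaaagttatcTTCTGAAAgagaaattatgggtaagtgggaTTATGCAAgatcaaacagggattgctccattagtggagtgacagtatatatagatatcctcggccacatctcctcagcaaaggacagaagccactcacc
Steap4: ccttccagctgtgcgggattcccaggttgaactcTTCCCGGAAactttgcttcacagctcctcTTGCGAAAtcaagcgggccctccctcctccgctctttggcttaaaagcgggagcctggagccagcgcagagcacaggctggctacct
Ptx3: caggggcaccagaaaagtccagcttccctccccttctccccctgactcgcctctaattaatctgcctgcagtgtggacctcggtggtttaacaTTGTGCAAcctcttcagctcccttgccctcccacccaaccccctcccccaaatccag
Over the 250 bases before the start, all 6 promoters held the C/EBP letters, which were present in 36.8% of 32851 promoters. Saa3 held them 4 times, at positions -216, -191, -129 and -99 counted from the start. Steap4 and Serpina3n held them 2 times each, and Lcn2, Ptx3 and Chil1 1 time each. The STAT letters were found only in Steap4 among these 6 promoters, at -116, against 7.02% of all promoters. A match of letters is a description of the sequence and not evidence that a factor binds there.

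The 3 day section held 121967 bins under tissue with a median of 836 UMIs, and the 28 day section 105589 bins with a median of 596 UMIs. The lesion zone was drawn from 6 phagocyte genes whose own levels are not reported as results, and it covered 2.18 mm² at 3 days and 3.47 mm² at 28 days, each as 1 patch. Its reflection across the midline of the section was the mirror zone. At 3 days the section ran off the array on the injured side, so the lateral end of the zone was not seen and the position of the midline, and with it every 3 day mirror area, is uncertain. With that midline moved 384 µm towards the injured side 5 of the 7 genes were past 2-fold in the 3 day zone in place of 7, and moved as far the other way all 7 were. At 28 days the zone lined and underlay a cavity where tissue had been lost. There 86.6% of zone bins had tissue at their mirror position, against 92.3% at 3 days. The most lateral columns of the 28 day zone reflect past the edge of the array. Zone bins with a UMI had a median array column of 44 (Saa3), 48 (Steap4 and Hp), 50 (Ptx3) or 54 (Lcn2). Most of those bins therefore had no counterpart in the 28 day mirror zone. Zone bins were shallow, with medians of 506 and 399 UMIs against 716 and 498 in the mirror zones, and levels are therefore given as UMI counts scaled to the total of the area (CPM). In such sums, fewer cells of a type and less RNA per cell cannot be told apart. Because each gene is read by its own probes, levels are compared between areas for one gene and not between genes. In the mirror zones the neuron list (Snap25, Rbfox3, Syt1, Slc17a7 and Gad1) reached 6539 CPM at 3 days and 5663 CPM at 28 days, so the labelled tissue was recognisable.

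**Figure D1:**
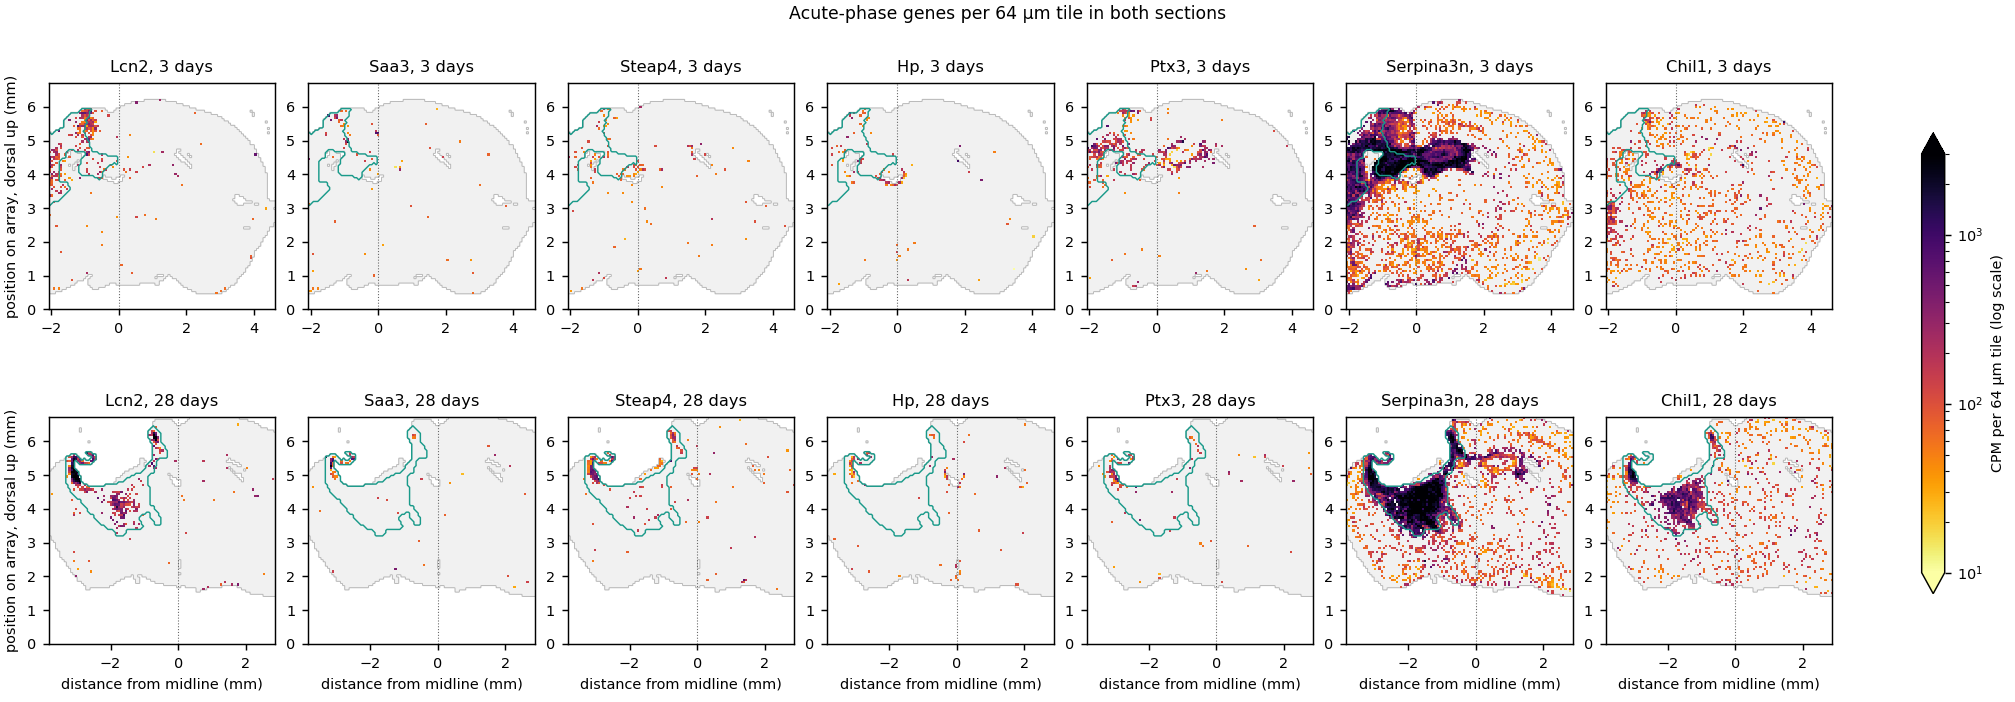
Maps of the 7 genes in the 3 day section (top) and the 28 day section (bottom), with CPM per 64 µm tile on a log colour scale, distance from the midline in mm on the horizontal axis and position on the array in mm on the vertical axis. Grey is tissue with 0 UMIs of the gene, the green line is the lesion zone and the dotted line the midline; at 28 days Lcn2, Saa3, Steap4, Hp and Ptx3 gathered at the lateral wall of the cavity, while Serpina3n and Chil1 also filled the tissue beneath it.

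In the lesion zone at 3 days Lcn2 reached 65.1 CPM (336 UMIs) against 0.686 CPM (5 UMIs) in the mirror zone, a log2 ratio of 6.43 (5.33 to 8.20). At 28 days Lcn2 reached 446 CPM (3190 UMIs) against 0.813 CPM (6 UMIs), a log2 ratio of 8.98 (7.98 to 10.55). Lcn2 thus showed the highest point value of the 7 genes in both sections. At 28 days its interval lay inside those of Saa3 and Ptx3, so the order of these 3 is not resolved there. At 3 days Hp had 32 UMIs in the zone and 5 in its mirror (log2 ratio 3.06, 1.80 to 4.89), and 59 and 3 UMIs at 28 days (4.13, 2.72 to 6.66). Steap4 had 32 and 12 UMIs at 3 days (1.87, 0.92 to 3.00), and 483 and 4 UMIs at 28 days (6.79, 5.59 to 8.84). These iron-handling genes were sparse at 3 days apart from Lcn2, and the intervals of Hp and Steap4 are wide for that reason.

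Of the amyloid and the opsonin, Saa3 gave 51 and 10 UMIs at 3 days (log2 ratio 2.79, 1.85 to 3.99), and 273 UMIs against 1 at 28 days (7.55, 5.65 to 13.45). Ptx3 gave 267 and 116 UMIs at 3 days (1.70, 1.38 to 2.03), and 191 UMIs against 1 at 28 days (7.04, 5.13 to 12.93). In the 3 day mirror zone Ptx3 stood at 15.9 CPM against 2.80 CPM over the whole opposite side, and against the latter its log2 ratio in the zone was 4.21 (3.95 to 4.47). Serpina3n was raised in that mirror zone too, at 455 CPM against 78.3 CPM. With the whole opposite side as the reference the 3 day ratios were 3.99 for Serpina3n (3.94 to 4.04), 5.14 for Saa3 and 3.58 for Steap4. At 28 days that reference gave 9.52 for Lcn2, 7.23 for Saa3, 6.69 for Steap4, 6.19 for Ptx3 and 3.67 for Hp. Serpina3n, by far the most counted of the set, gave 6432 and 3317 UMIs at 3 days (1.45, 1.39 to 1.51), and 12219 and 205 UMIs at 28 days (5.94, 5.74 to 6.15). Chil1 gave 156 and 104 UMIs at 3 days (1.08, 0.71 to 1.45), and 2666 and 78 UMIs at 28 days (5.13, 4.81 to 5.48).

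All 7 genes were past 2-fold in the zone in each section, and among all genes that reached 20 UMIs in the zone and its mirror together this held for 17.0% (3 days, 13542 genes) and 16.4% (28 days, 13593 genes). The median log2 ratio of the 7 genes was 1.87 at 3 days and 6.79 at 28 days, beside 0.13 and -0.00 over all those genes. The genes were chosen for this contrast, so nothing is read from these counts. When UMIs per bin were used in place of CPM, 5 of the 7 were past 2-fold at 3 days.

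Between the sections the genes took different courses. The zone to mirror log2 ratio was higher at 28 days than at 3 days for all 7, by 1.07 for Hp, 2.55 for Lcn2, 4.05 for Chil1, 4.49 for Serpina3n, 4.76 for Saa3, 4.92 for Steap4 and 5.35 for Ptx3. A difference of at least 1 was seen in 8.52% of 13293 genes. The 7 genes were chosen for the zone to mirror values that make up this difference, so nothing is read from that share. Over the alternatives the lowest values were 0.86 for Lcn2, under the threshold of 1, 1.99 for Ptx3, 2.09 for Saa3, 2.11 for Serpina3n, 2.86 for Steap4 and 3.19 for Chil1. That of Hp turned to -0.09 with the whole opposite side as the reference and to -0.48 where only zone bins with tissue at their mirror position were kept.

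The levels in the zone itself were compared between the sections as well, but the zones did not cover the same territory. The injured side on the array spanned 2.08 mm from the midline at 3 days and 3.84 mm at 28 days. The lateral wall of the 28 day cavity, outlined below, lay wholly beyond the 3 day span. It held 2618 of the 3190 zone UMIs of Lcn2, 417 of 483 of Steap4, 264 of 273 of Saa3 and 51 of 59 of Hp. Chil1 was 30.2 CPM in the 3 day zone and 372 CPM in the 28 day zone, a log2 ratio of 3.62 (3.39 to 3.87). Steap4 went from 6.20 to 67.5 CPM (3.42, 2.93 to 4.01), Lcn2 from 65.1 to 446 CPM (2.77, 2.61 to 2.94) and Saa3 from 9.88 to 38.1 CPM (1.94, 1.51 to 2.41). In the medial wall and the deep field of the 28 day zone Saa3 was only 6.37 and 0.898 CPM, both below its 3 day zone. Lcn2 was 362 and 69.2 CPM in those parts, both above its 3 day zone. Steap4 was 51.0 CPM in the medial wall, above its 3 day zone, and 5.39 CPM in the deep field, below it. Serpina3n was 1246 CPM at 3 days and 1707 CPM at 28 days (0.45, 0.41 to 0.50), and the interval for Hp, at 6.20 and 8.24 CPM, included no difference (0.40, -0.23 to 1.08). Ptx3 was the exception, with a lower level in the later zone, 51.7 CPM at 3 days and 26.7 CPM at 28 days (-0.95, -1.23 to -0.68). Its larger ratio at 28 days went with a lower level on the other side of the brain. Over the whole opposite side Ptx3 was 2.80 CPM at 3 days and 0.354 CPM at 28 days (-2.94, -3.81 to -2.25). Serpina3n was also lower there at 28 days, 24.8 CPM against 78.3 CPM at 3 days (-1.66, -1.75 to -1.56). For Lcn2, Saa3, Steap4, Hp and Chil1 the intervals of the opposite side included 0. In the smaller mirror zone Saa3 went from 10 UMIs (1.37 CPM) at 3 days to 1 UMI (0.135 CPM) at 28 days and Steap4 from 12 to 4 UMIs (1.65 and 0.542 CPM), counts that enter their zone to mirror differences.

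**Figure D2:**
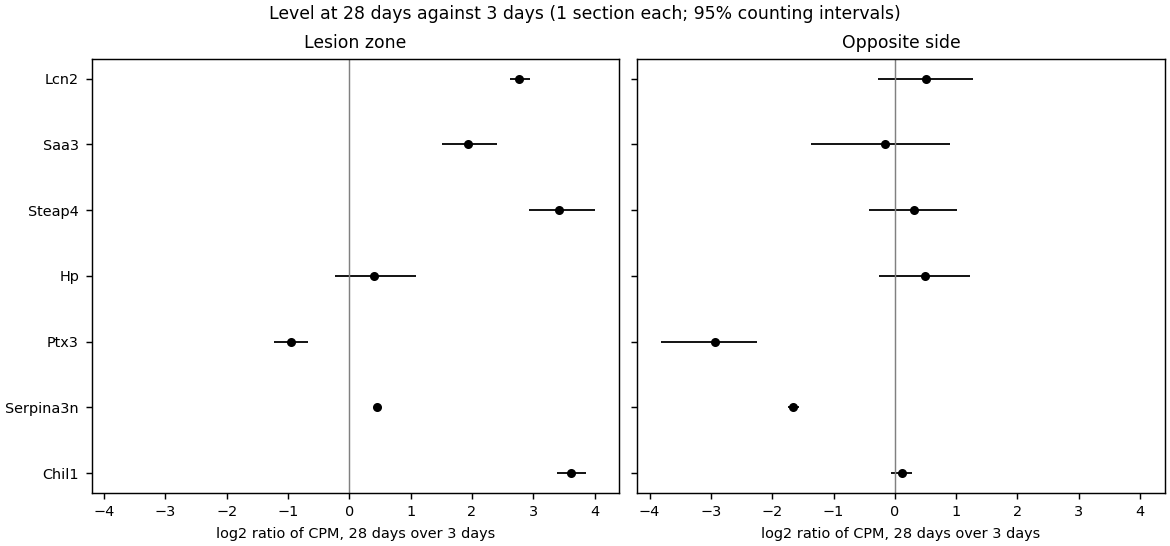
Log2 ratio of CPM at 28 days over 3 days for each gene (points) with 95% counting intervals (lines), in the lesion zone (left) and over the opposite side (right), 1 section per time. In the zone Ptx3 alone lies left of 0 (-0.95) and Chil1 lies farthest right (3.62), while on the opposite side Ptx3 (-2.94) and Serpina3n (-1.66) lie left of 0.

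Within the lesion the genes did not share one territory. Parts of the zone were outlined after the maps had been seen, and their levels are descriptions. At 28 days the lateral wall of the cavity (3799 bins) was set beside its medial wall (1623 bins) and the field of tissue below it (8137 bins). Saa3 was almost absent outside the lateral wall, with 264 of its UMIs there, 6 in the medial wall and 3 in the deep field, or 91.8, 6.37 and 0.898 CPM. Ptx3 had 176, 11 and 4 UMIs (61.2, 11.7 and 1.20 CPM). Hp had 51, 7 and 1 UMIs. Steap4 reached 145, 51.0 and 5.39 CPM, and Lcn2 911, 362 and 69.2 CPM. These 5 genes therefore had the same order, from lateral wall to medial wall to deep field.

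Serpina3n and Chil1 did not follow that order. Serpina3n was highest in the deep field, at 2194 CPM against 1317 CPM in the lateral wall and 1170 CPM in the medial wall. Chil1 was 350 CPM in the deep field, 471 CPM in the lateral wall and 153 CPM in the medial wall. The deep field held the thalamic gene Tcf7l2 at 211 CPM, beside 34.4 and 37.2 CPM in the walls and 269 CPM in the mirror zone. Marker lists moved with these parts as well. The fibroblast list (Dcn, Lum, Col1a1, Col1a2, Col3a1 and Pdgfra) was 813 CPM in the lateral wall and 114 CPM in the deep field, and the neutrophil list (S100a8, S100a9, Retnlg, Ngp, Camp and Cxcr2) 163 and 2.1 CPM. S100a9 and S100a8 made up nearly all of the latter, while the granule gene Camp was at 0 UMIs in the 28 day zone and Ngp at 1 UMI. What part these cells have in the levels of the 7 genes was not tested.

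At 3 days the parts of the zone also differed. Saa3 was already restricted, at 22.4 CPM in the dorsal part of the zone against 2.04 CPM in the lateral strip and 3.12 CPM in the medial part. Lcn2 was 83.5 and 70.8 CPM in the dorsal part and the lateral strip and 28.9 CPM in the medial part. Ptx3 was level across the 3 parts (50.1, 56.5 and 46.8 CPM), with all intervals of its ratios including 0. Serpina3n and Chil1 ran the other way, from 692 CPM dorsally to 2450 CPM medially for Serpina3n and from 16.7 to 54.6 CPM for Chil1. The fibroblast list was 1120 CPM dorsally and 360 CPM medially, and the oligodendrocyte list 5723 and 17302 CPM. Steap4 and Hp had 7 to 18 UMIs per part. Hp was higher in the dorsal part (18 UMIs) than in the lateral strip (7 UMIs; log2 ratio 1.34, 0.07 to 2.90), and the intervals of the other ratios between parts included 0 for both genes.

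**Figure D3:**
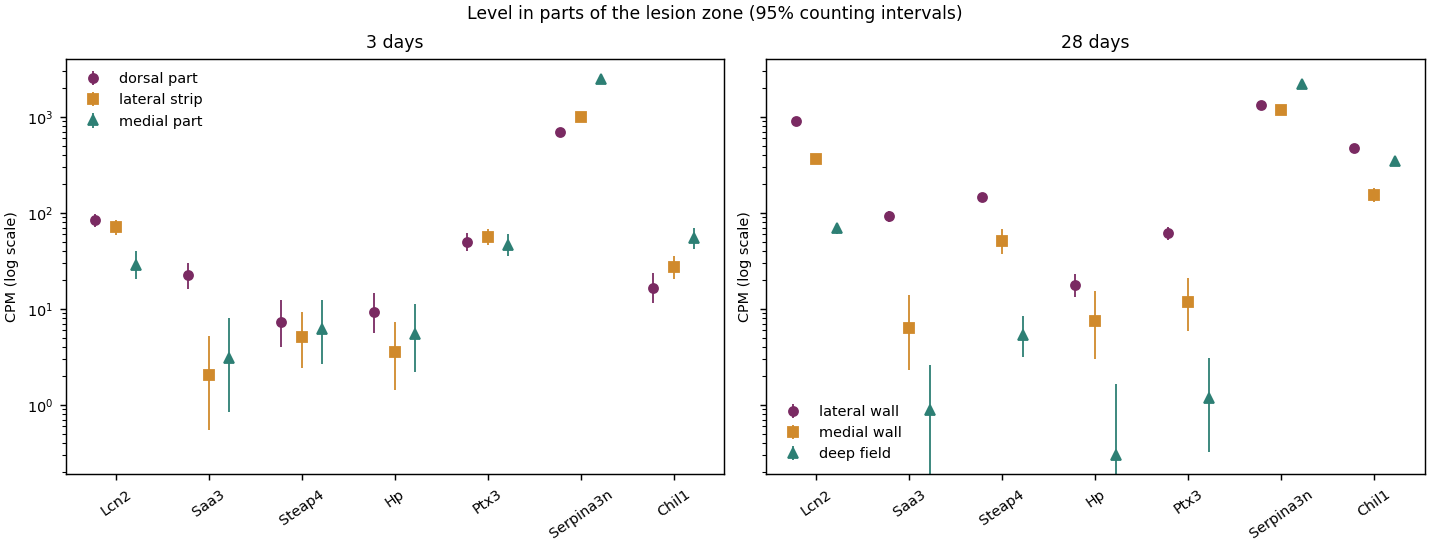
CPM of each gene on a log axis in 3 parts of the lesion zone at 3 days (left) and 28 days (right), with 95% counting intervals. At 28 days Lcn2, Saa3, Steap4, Hp and Ptx3 fall from the lateral wall to the deep field, whereas Serpina3n is highest in the deep field (2194 CPM).

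Some of the genes lay in few tiles. At 28 days 3 of 903 tiles held 50% of the 273 Saa3 UMIs of the zone, and 1 tile held 83 of them. Lcn2, with 3190 UMIs, had 50% of them in 13 tiles, and Serpina3n, with 12219 UMIs, in 146 tiles. At 3 days 5 of 571 tiles held 50% of the 51 Saa3 UMIs, whereas the 32 UMIs of Hp lay in 30 tiles. The genes differ in counts, so these numbers do not rank them. At 28 days several of the genes were also found in the same bins. Lcn2 and Steap4 shared 246 bins, 11.9 times the 20.7 bins that their frequencies would give if they were placed independently. Steap4 and Ptx3 shared 64 bins (20.1 times), and Saa3 and Steap4 33 bins (16.5 times). Chil1 was in excess with these genes as well, sharing 435 bins with Lcn2 (4.46 times), 218 with Steap4 (6.05 times) and 83 with Ptx3 (5.53 times). Serpina3n and Chil1 shared 1136 bins, 1.74 times the independent number, where the many bins that held Serpina3n set a low ceiling. These ratios are not corrected for the uneven spread of the genes over the zone. Most UMIs of Lcn2, Saa3, Steap4, Hp and Ptx3 lay in the lateral wall, which by itself raises the number of shared bins. The ratios are also not corrected for the uneven depth of the bins: Steap4-positive bins had a median of 1990 UMIs and the others 392. At 3 days fewer bins were shared, though not always by a smaller excess. Lcn2 and Steap4 shared 7 bins where 0.988 would be expected, and Lcn2 and Chil1 21 bins (4.96 times). Serpina3n shared 132 bins with Ptx3 (1.31 times) and 81 with Chil1 (1.42 times). Saa3 shared 0 bins with Hp, Ptx3 or Chil1, where only 0.139, 1.02 and 0.579 bins would be expected. Avoidance cannot be read from such low numbers.

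Genes whose map most resembled each member in the zone were listed over tiles of 128 µm, which share depth and tissue composition, so the correlations r of log2(CPM + 10) are descriptive. Over 249 tiles at 28 days Saa3 was closest to Mmp3 (stromelysin 1, a matrix protease; r = 0.69), Steap4 to Mmp3 (0.65) and Ptx3 to Mmp3 (0.59). Lcn2 was closest to C3, the central complement component (0.68), followed by Lyz2 (0.62), which also served to draw the zone. Hp was closest to Cfap44 (0.57), with Cfap54, Meig1 and Ccdc153, genes of motile cilia, among its other 4, beside Lbp, itself an acute-phase gene (0.56). Serpina3n was closest to the metallothionein Mt1 (0.85), as was Chil1 (0.68). Over 158 tiles at 3 days Serpina3n was closest to Dbndd2 (0.84), with Trf (0.79), Atp1b2 (0.78) and Cldn11 (0.78) among its other 4. Ptx3 was closest to Cebpd, which encodes a C/EBP factor (0.50), and to Vim, the intermediate filament of reactive astrocytes (0.50). For Lcn2, Saa3 and Chil1 at 3 days no gene passed 0.41.

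Levels outside the zone were read from the border of each section's own zone. That zone held 6.97% of all bins at 3 days and 12.8% at 28 days, so distances from its border are not matched between the sections. How the counts past 2-fold move with the zone threshold is given below. In the 250 µm band around the zone at 3 days, Lcn2 had 188 UMIs against 9 in the mirrored band (log2 ratio 4.10, 3.22 to 5.33). Chil1 had 249 and 63 UMIs (1.76, 1.37 to 2.19), Steap4 44 and 10 (1.87, 0.91 to 3.08) and Hp 32 and 7 (1.90, 0.78 to 3.41). Serpina3n stayed just under 2-fold, with 592 and 313 CPM (0.92, 0.83 to 1.01), and Ptx3 had 82 and 81 UMIs (-0.19, -0.65 to 0.27). This value of Ptx3 was not stable, and ran from -2.18 with the zone drawn at the 95th percentile to 1.36 with a stricter threshold. Saa3 had 13 UMIs against 0, which is at least 3.74-fold against a floor of 3 UMIs, but 7 of the 13 lay in 1 tile and the gene was under the minimum of 20 UMIs. Thus 4 of the 6 members that met the minimum were past 2-fold, beside 12.1% of 13395 genes.

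Farther out at 3 days fewer of the genes exceeded their mirror. From 250 to 500 µm Lcn2 had 19 UMIs against 0 (at least 4.88-fold), just under the minimum of 20 and with 7 of the 19 in 1 tile. Steap4 had 7 UMIs against 0 (at least 1.80-fold), each in a different tile and also under that minimum. Chil1 had 103 and 35 UMIs (log2 ratio 1.17, 0.62 to 1.78) and Serpina3n 676 and 85 UMIs (2.61, 2.29 to 2.96). From 500 to 1000 µm Serpina3n was still 50.1 against 9.32 CPM (2.41, 2.00 to 2.88), and Chil1 19.0 against 12.1 CPM (0.64, 0.20 to 1.10). Lcn2 was at 3 and 2 UMIs there, and the 21 UMIs of Saa3 against 2 included 13 from 1 tile. From 1000 to 2000 µm Serpina3n remained at 37.8 against 25.1 CPM (0.59, 0.35 to 0.84), while the interval for Chil1 included 0 (0.31, -0.07 to 0.70). Of the 7 genes, Serpina3n alone had an interval above 0 in every band.

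At 28 days few members exceeded their mirror beyond the border of the zone. Lcn2, at 446 CPM inside, had 7 UMIs in the surrounding 250 µm band (1.04 CPM) against 1 in its mirror. Chil1, at 372 CPM inside, was 10.1 CPM in the band and 11.8 CPM in its mirror (log2 ratio -0.23, -0.74 to 0.28). Saa3 had 0 UMIs against 1, Ptx3 4 against 1, and Hp 0 against 5. Serpina3n was 76.9 against 30.5 CPM (1.33, 1.08 to 1.59) and Steap4 21 against 4 UMIs (2.01, 0.57 to 4.14). These 2 were past 2-fold among 3 members that met the minimum of 20 UMIs, beside 6.67% of 13149 genes. From 250 to 500 µm the interval for Serpina3n included 0 (0.33, -0.03 to 0.71), from 500 to 1000 µm it lay just above 0 (0.43, 0.03 to 0.85), and from 1000 to 2000 µm it was lower than in its mirror (-0.47, -0.81 to -0.12).

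The bands were not matched in tissue, because they held choroid plexus, the folded epithelium that makes cerebrospinal fluid, more than their mirrors did. The choroid plexus list (Ttr, Folr1, Kl and Clic6, mostly Ttr) was 36068 CPM in the 3 day band against 3058 CPM in its mirror, and 16675 against 88.1 CPM at 28 days. Bins in which this list made up at least 1% of UMIs were therefore left out as an addition made after seeing the data. Steap4 then had 6 UMIs in the 28 day band against 4 (log2 ratio 0.41, -1.61 to 2.74), so most of its UMIs in this band lay in choroid plexus-rich bins. At 3 days Steap4 had 22 against 9 UMIs (1.36, 0.23 to 2.71). Lcn2 (4.55), Hp (2.21) and Chil1 (1.91) stayed past 2-fold at 3 days, and Serpina3n passed it (1.22). At 28 days Serpina3n was at 1.45.

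**Figure D4:**
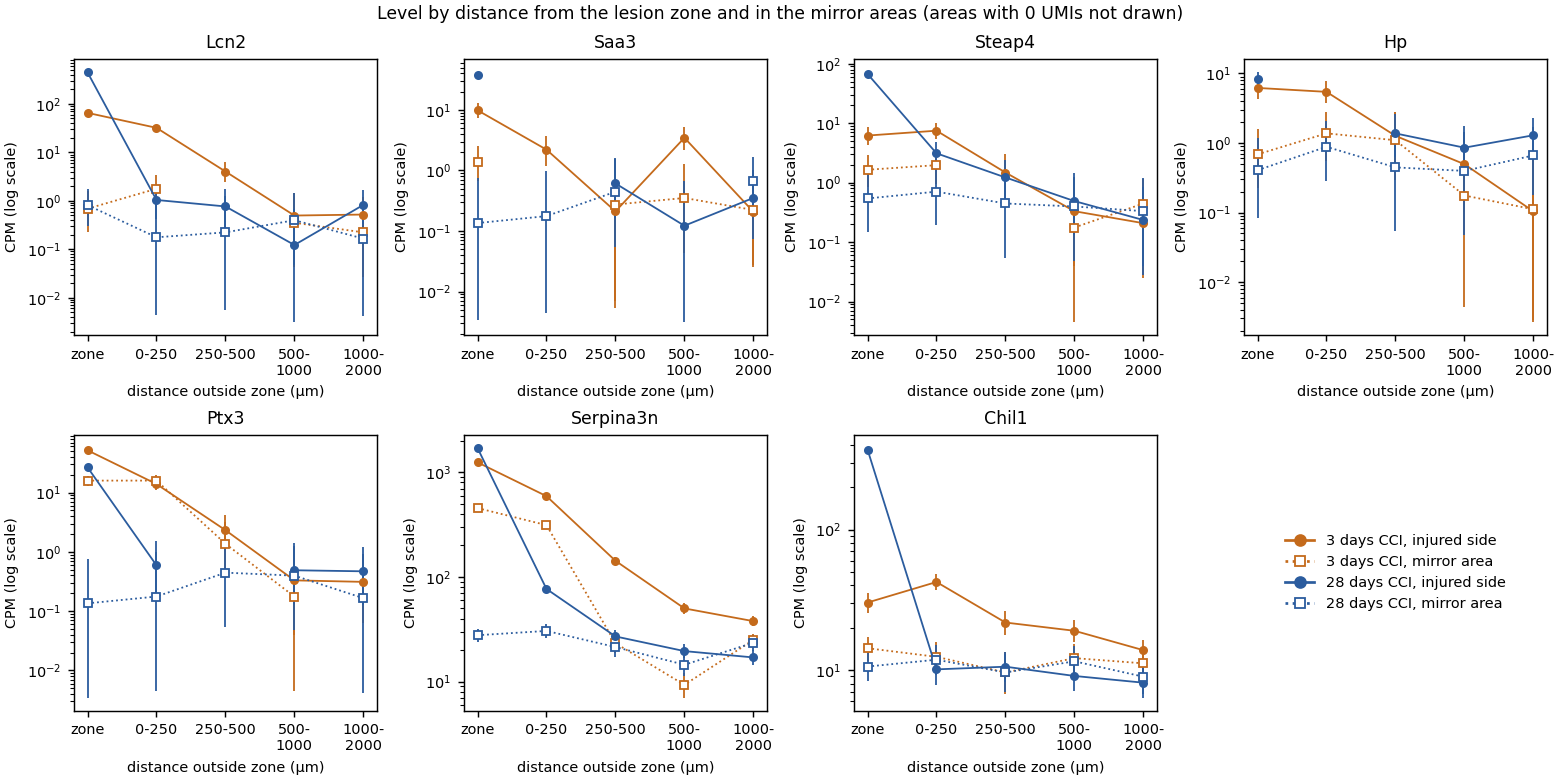
CPM of each gene on a log axis in the lesion zone and in bands at increasing distance in µm outside it (filled circles), and in their mirror areas (open squares), at 3 days (orange) and 28 days (blue), with 95% counting intervals; areas with 0 UMIs are not drawn. At 28 days Lcn2 drops from 446 CPM in the zone to 1.04 CPM in the first band, and at 3 days Serpina3n stays above its mirror in every band.

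On the opposite side the maps were not empty. Tiles at or above the 90th percentile for the oligodendrocyte list (which includes Mbp, Mobp, Mog and Mag) were taken as myelin-rich, again after seeing the data. Serpina3n was 441 CPM in those tiles and 70.2 CPM elsewhere on the opposite side at 3 days (log2 ratio 2.65, 2.54 to 2.76), and 121 and 21.0 CPM at 28 days (2.53, 2.31 to 2.75). Ptx3 was 24.9 and 2.31 CPM at 3 days (3.45, 2.93 to 3.91), and had only 2 UMIs in those tiles at 28 days. Lcn2 had 6 UMIs there at 28 days, or 3.45 against 0.484 CPM (2.91, 1.23 to 4.19), and 3 UMIs at 3 days with an interval that included 0 (2.27, -0.28 to 3.75). Serpina3n and Ptx3 were lower far from the midline at 3 days. Serpina3n in myelin-rich tiles was 1264, 776, 1211 and 134 CPM over 4 successive steps of 500 µm from the midline and 34.2 CPM beyond 2000 µm. Ptx3 was 125, 54.4, 44.2 and 12.2 CPM over the same steps, with 0 UMIs beyond 2000 µm. At 28 days Serpina3n was at 333, 161, 347 and 44.9 CPM over the same 4 steps and at 35.1 CPM beyond. Chil1 showed no such preference, at 12.2 and 8.90 CPM at 3 days (0.48, -0.23 to 1.06).

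Gfap, the intermediate filament of astrocytes, was compared between bins that held a UMI of each gene and the other bins of the zone. At 3 days it was higher in bins with Ptx3 (6088 against 3391 CPM, log2 ratio 0.84, 0.76 to 0.93), Chil1 (5962 against 3433 CPM, 0.80, 0.68 to 0.91), Steap4 (5617 against 3476 CPM, 0.70, 0.47 to 0.91) and Serpina3n (4233 against 2818 CPM, 0.59, 0.54 to 0.63). It was lower in bins with Saa3 (1817 against 3500 CPM, -0.93, -1.34 to -0.58). For Lcn2 it was 3309 against 3499 CPM (-0.08, -0.18 to 0.02) and for Hp the interval also included 0 (-0.15, -0.50 to 0.16). The 4 genes above were past 1.5-fold, beside 2.44% of 12694 genes tested in the same way. The difference was smaller against nearby tissue. Against bins lying 80 to 160 µm away from the gene's own bins the log2 ratios were 0.59 for Steap4, 0.44 for Chil1, 0.32 for Ptx3 and 0.08 for Serpina3n, so that 1 gene, Steap4, stayed past 1.5-fold, on 31 bins. The Saa3 ratio came to 0.01.

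At 28 days Gfap was high throughout the zone and no member passed 1.5-fold, as in all but 0.0386% of 12966 genes. The largest log2 ratio was that of Serpina3n (6284 against 4286 CPM, 0.55, 0.52 to 0.58), followed by Chil1 (0.37), Ptx3 (0.35), Lcn2 (0.26) and Steap4 (0.25). Saa3 bins again held less Gfap (3604 against 5339 CPM, -0.57, -0.69 to -0.45). Bins holding a gene were deeper than the rest at 28 days, with a median of 1328 against 384 UMIs for Lcn2 and 457.5 against 344 for Serpina3n. Over the members the median log2 ratio of Gfap was 0.59 at 3 days and 0.26 at 28 days, beside -0.14 and -0.16 over all genes.

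Outside the zone on the injured side the Gfap ratios were larger for several members. At 3 days it was 4276 CPM in bins with Ptx3 against 932 CPM in bins without (log2 ratio 2.20, 2.05 to 2.34, and 1.10 against bins 80 to 160 µm away). For Serpina3n it was 2928 against 687 CPM (2.09, 2.06 to 2.13, and 0.75), and for Lcn2 2330 against 931 CPM (1.32, 1.20 to 1.45, and 0.70). In Hp bins Gfap was 2167 CPM, with 1332 CPM at 80 µm from them and 1279 CPM at 160 µm. In Steap4 bins it was 1446 CPM, with 1457 and 1726 CPM at those distances, and in Saa3 bins 1587 CPM, with 2096 and 1669 CPM. Steap4 and Saa3 bins were thus not above the tissue around them. At 28 days Serpina3n bins outside the zone held 994 against 333 CPM of Gfap (1.58, 1.47 to 1.68, and 0.86).

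Vessel genes were summed as an endothelial list (Cldn5, Pecam1, Cdh5, Flt1, Slco1a4 and Emcn). Inside the zone at 3 days Lcn2 was the 1 member past 1.5-fold, with 679 CPM of the list in its bins against 453 CPM (log2 ratio 0.59, 0.35 to 0.81), beside 8.11% of 12689 genes. That value lay just past the threshold and was 0.42 against bins 80 to 160 µm away. Of the single genes, Slco1a4, a transporter of the blood-brain barrier, stood at 0.94 in Lcn2 bins, Cldn5, its tight junction protein, at 0.83, and Pecam1 at -0.13. Serpina3n bins held less of the list (371 against 551 CPM, -0.57, -0.69 to -0.45), and for the other 5 genes the intervals included 0. At 28 days no member passed 1.5-fold, beside 3.97% of 12961 genes. Steap4 (-0.52), Ptx3 (-0.51) and Hp (-0.63) bins then held less of the endothelial list, while Lcn2 was at -0.15 (-0.32 to 0.01). The median ratio of the endothelial list over the members was -0.19 at 3 days and -0.15 at 28 days, beside -0.04 and -0.22 over all genes. Single genes of the list were split at 28 days. In Ptx3 bins Slco1a4 was higher (0.74, 0.11 to 1.27, 28 UMIs). Lower there, on few UMIs, were Pecam1 (-1.81, -5.18 to -0.26, 2 UMIs), Flt1 (-0.92, -1.99 to -0.13, 11 UMIs) and Cldn5 (-0.83, -1.72 to -0.15, 15 UMIs). In Lcn2 bins Pecam1 (-0.68) and Flt1 (-0.70) were lower and Slco1a4 higher (0.34), and in Chil1 bins Cdh5 (-0.99) and Flt1 (-0.31) were lower and Slco1a4 higher (0.46). In Steap4 bins Flt1 (-1.18), Pecam1 (-0.82) and Cldn5 (-0.68) were lower, and in Serpina3n bins Slco1a4 was higher (0.42). Vcam1, an adhesion molecule of activated endothelium, lies outside this list and is 1 gene of a venous list (Ackr1, Vwf, Vcam1, Selp, Slc38a5 and Apod). In the 28 day zone its ratios in bins of the members ran from 1.23 (0.61 to 1.75) for Saa3 to 2.02 (1.78 to 2.26) for Lcn2 and 2.05 (1.67 to 2.40) for Ptx3. At 3 days its intervals included 0 in bins of Lcn2 (0.46), Saa3 (0.35), Steap4 (1.05) and Chil1 (0.68), and lay above 0 for Hp (1.68, 0.11 to 2.70), Ptx3 (0.71, 0.04 to 1.26) and Serpina3n (0.48, 0.20 to 0.76). Vcam1 was not compared with nearby bins or with the bins of all other genes, and member bins were deeper, so nothing about vessels is read from it. Vwf of the same venous list had 28 day intervals that included 0 for all 7 members. It was sparse, with 6 UMIs in Serpina3n bins and 4 in Lcn2 bins.

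Outside the zone at 3 days the endothelial ratios of Lcn2 were larger, although the difference from the zone was not tested. On the injured side its UMIs lay mainly near the zone, with 188 within 250 µm, 19 from 250 to 500 µm, and 3 and 5 in the farther bands. Outside the zone on the injured side at 3 days its 171 bins held 576 CPM of the endothelial list against 251 CPM (log2 ratio 1.20, 0.94 to 1.44, and 0.85 against bins 80 to 160 µm away). There Pecam1 stood at 1.74, Cdh5 at 1.60, Cldn5 at 1.57 and Emcn at 1.31, while the intervals of Slco1a4 (0.76, -0.04 to 1.38) and Flt1 (0.53, -0.18 to 1.10) included 0. On the opposite side at 3 days 34 bins held Lcn2, and they carried 963 against 192 CPM of the list (2.35, 1.76 to 2.84, and 2.05). In the 28 day section 26 bins of the opposite side held Lcn2, and the interval of the list included 0 (0.66, -0.75 to 1.61). Saa3 also stood with the list outside the zone at 3 days, in 30 bins (1.56, 0.87 to 2.11). These bins were partly clustered, since 1 tile of the first band and 1 tile from 500 to 1000 µm held 7 and 13 of its UMIs. The list was 730 CPM in Saa3 bins, 362 CPM at 80 µm from them and 352 CPM at 160 µm. Hp bins, 43 in number, stood at 0.91 (0.26 to 1.43), with 466 CPM against 289 and 333 CPM at those distances. Steap4 stood at 0.71 (0.22 to 1.13) in 61 bins, but the list was level around them. It was 410 CPM in Steap4 bins, 417 CPM at 80 µm and 378 CPM at 160 µm. At 28 days Steap4 stood with the list outside the zone (1.46, 0.80 to 2.00; 33 bins) and on the opposite side (1.57, 0.78 to 2.20; 29 bins). Single genes were split and sparse in the bins outside the zone. Pecam1 (2.51, 6 UMIs), Slco1a4 (1.99, 7 UMIs), Flt1 (1.54, 7 UMIs) and Emcn (2.73, 3 UMIs) had intervals above 0. Cldn5 had 2 UMIs (-0.11) and Cdh5 0 UMIs, with intervals that included 0. The same bins carried the choroid plexus list, as given below.

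**Figure D5:**
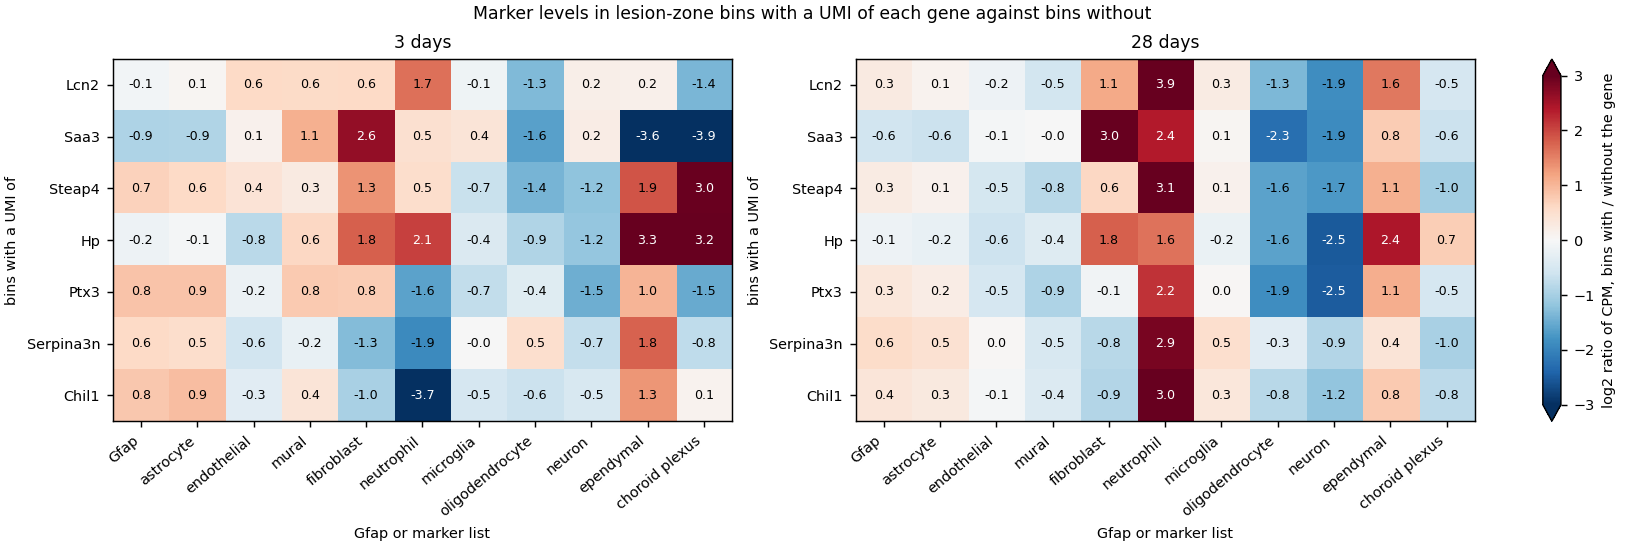
Log2 ratio of the CPM of Gfap and of 10 marker lists in lesion-zone bins with a UMI of each gene over bins without, at 3 days (left) and 28 days (right); red is higher and blue lower in bins with the gene. Saa3 stands with the fibroblast list in both sections (2.6 and 3.0) and Hp with the ependymal list (3.3 and 2.4).

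Other cell types gave larger ratios than Gfap or the endothelial list. The fibroblast list was 3294 CPM in Saa3 bins against 530 CPM at 3 days (log2 ratio 2.64, 2.34 to 2.92) and 2667 against 333 CPM at 28 days (3.00, 2.85 to 3.15). It was still higher in Saa3 bins than in bins 80 to 160 µm away, by 1.27 and 1.58. Hp bins carried the ependymal list (Foxj1, Tmem212 and Ccdc153, genes of the ciliated lining of the ventricles) at 1686 against 179 CPM at 3 days (3.25, 2.75 to 3.69) and 867 against 162 CPM at 28 days (2.43, 2.07 to 2.75). Outside the zone this was steeper, at 5.53 and 4.50. Steap4 bins outside the zone carried the choroid plexus list, at 3.67 at 3 days and 4.59 at 28 days. The neutrophil list was higher in Lcn2 bins at 3 days (154 against 49.6 CPM, 1.65, 1.12 to 2.13, on 40 UMIs) and 28 days (299 against 19.9 CPM, 3.90, 3.60 to 4.22). The 28 day value came to 0.18 against bins 80 to 160 µm away, whereas at 3 days it was 2.15. Serpina3n bins carried slightly more of the oligodendrocyte list at 3 days (0.51).

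The wider acute-phase program was read from lists of genes in the zone against the mirror zone. The zone was drawn from phagocyte genes, and the lists were chosen with earlier results known, so nothing is read from their counts. Of 24 other acute-phase genes 9 could be tested at 3 days, and 6 were past 2-fold higher and 0 lower, where 17.0% of all genes tested were past 2-fold higher. The highest were Cd14, the endotoxin co-receptor (3.52), C3 (3.15), Timp1, an inhibitor of matrix proteases (2.32), and Lrg1 (1.502), and the lowest Lbp (0.38) and Itih3 (-0.49). At 28 days 9 of 10 were past 2-fold higher and 0 lower, beside 16.4% of all genes, led by C3 (6.79), Timp1 (6.15), the protease trap A2m (5.94) and complement factor B, Cfb (4.90, from 43 UMIs against 1), with Cp (3.05) and Itih3 (-0.06) lowest. The median log2 ratio of the list was 1.49 at 3 days and 3.90 at 28 days, beside the 0.13 and -0.00 of all genes.

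Of 20 upstream signalling genes, all were testable at 3 days and 12 were past 2-fold higher, with 0 lower, beside the same 17.0% of all genes. Il1b, the interleukin 1 that opens the response, stood at 4.44, Osm, a cytokine of the interleukin 6 family, at 3.87, Lif at 2.80 and the feedback inhibitor Socs3 at 2.40, with Lifr (0.20) and Il1a (-0.34) lowest. At 28 days 17 of 18 were past 2-fold higher and 0 lower, beside 16.4%, led by Osm (5.23, from 54 UMIs against 1), Il1b (4.57), the oncostatin M receptor Osmr (4.15) and Tnf (4.13, from 25 UMIs against 1), with Il6st (1.16) and Lifr (-0.15) lowest. The medians were 1.13 and 2.62. Of 10 receptors and partners, 8 were testable in each section and 5 were past 2-fold higher, with 0 lower, beside 17.0% and 16.4% of all genes. Cd36, a scavenger receptor, was highest at 3 days (3.63), before the toll-like receptors Tlr4 (2.41) and Tlr2 (1.87) and the haemoglobin-haptoglobin receptor Cd163 (1.70). Tlr2 was highest at 28 days (4.97), before Tlr4 (3.31), Lrp2 (2.59) and Cd36 (1.56). The lowest in both sections were Slc22a17, a receptor of lipocalin 2 (-0.89 and -0.86), and the transferrin receptor Tfrc (-0.64 and -0.89). The list's median was 1.61 at 3 days and 1.31 at 28 days.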

How the data were processed

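Visium HD data of 2 sections were used, 1 taken 3 days and 1 taken 28 days after CCI. Per the file headers and the labels, the authors used Space Ranger 4.0.1 to make raw UMI counts of each gene in 16 µm bins. The deposited counts were not normalized, and the submitters' notes name the build mm10. The members and lists were chosen with earlier results of these data known. All 7 members are named throughout, with lists given by counts and by their 4 highest and 2 lowest genes. For likeness the 5 most similar genes outside the 7 members were taken (those with at least 200 UMIs in the zone).

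Bins under 100 UMIs were left out (1.93% and 2.15%). The zone was made of 64 µm tiles in which Cd68, Lyz2, Ctsz, Lgals3, Cd52 and Laptm5, averaged over 5 by 5 tiles, exceeded the 99th percentile of the opposite side, in patches of at least 25 tiles. The midline was array column 130 at 3 days and 240 at 28 days. CPM ratios used a pseudocount of 0.5 UMI, a minimum of 20 UMIs per gene, and exact conditional binomial 95% intervals, and a gene was counted past 2-fold (1.5-fold for shared bins) with no test. PCR and capture noise is not covered by such intervals. Scripts ran in Python 3.11.15 with numpy 2.4.6, pandas 2.3.3, scipy 1.17.1 and matplotlib 3.10.9, and edgeR 4.0.16 in R 4.3.3 gave trimmed mean of M-values (TMM) factors. They were tested on simulated data. Alternatives changed the scaling, minimums, midline, reference, zone threshold, smoothing, depth and reference bins. Ly6c1 of the endothelial list was not analysed here, and a gene of the oligodendrocyte list is not reported here by itself.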

Additional observations from a re-analysis of the deposited data

Results flagged for a closer look

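Hp took opposite directions in the 250 µm band outside the zone in the 2 sections. The log2 ratio to the mirrored band was 1.90 at 3 days (32 against 7 UMIs) and -3.71 at 28 days (0 against 5 UMIs, with an upper limit of -0.12). The latter is under the minimum of 20 UMIs, and its size is set by the pseudocount of 0.5 UMI. With the zone drawn at the 95th percentile both directions turned, to -0.28 at 3 days and 0.37 at 28 days. The difference between the sections was not tested, and without choroid plexus-rich bins the values were 2.21 and -3.58, with an upper limit of 0.01 at 28 days. At 28 days Hp was at 9 against 2 UMIs from 250 to 500 µm and at 11 against 4 UMIs from 1000 to 2000 µm.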

How the results depend on the processing

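Of 90 recomputed counts of members, 73 stayed within 1.5 times the value reported, and of 612 recomputed values of single members 462 moved by less than their counting interval, 141 moved by more and 9 that had been past their fold threshold changed sign. With 1 section per group nothing could be left out, and no paired analysis was possible because each group had 1 section. Scaling by TMM or by UMIs per bin shifts all genes alike, and took the zone to mirror log2 ratio of Lcn2 at 3 days from 6.43 to 6.28 and 5.82. Members past 2-fold within 250 µm outside the zone numbered 4 at 3 days, but 7 with 3 by 3 smoothing or a threshold at the stricter of the percentiles tried and 2 at the 95th percentile. At 28 days they numbered 2, but 4 with no minimum per gene, 1 at the 95th percentile and 1 without choroid plexus-rich bins, the last added after seeing the data. Members past 1.5-fold for Gfap at 3 days numbered 4, but 2 with no minimum per bin, with bins thinned to 300 UMIs, at the 95th percentile and in bins with at least 2 UMIs of the member, and 1 against bins 80 to 160 µm away. At 28 days they numbered 0, but 4 at the 95th percentile, 1 in bins with at least 2 UMIs and 1 in the lateral wall alone, also added later. For the endothelial list the 1 member at 3 days became 0 against bins 80 to 160 µm away and in bins with at least 2 UMIs, and the 0 at 28 days became 1 with thinned bins. Smaller values around 0 also crossed it, as for the Gfap ratio of Lcn2 at 3 days (-0.17 to 0.28 over the alternatives) and the ratio of Chil1 outside the zone at 28 days (-0.27 to 0.24). At the 95th percentile the ratios outside the zone became -0.28 for Hp at 3 days and 0.37 for Saa3, 0.37 for Hp and -0.37 for Ptx3 at 28 days, and the endothelial ratio of Hp at 3 days became 0.21. With the midline moved 384 µm towards the injured side the ratio outside the zone of Saa3 at 3 days became -0.85. The 28 minus 3 day difference of Hp became -0.091 with the whole opposite side as reference and -0.48 over bins with a mirror bin. The Gfap ratio of Saa3 at 3 days became 0.012 against bins 80 to 160 µm away. Few UMIs limit the ratios of Hp, Steap4 and Saa3 at 3 days and of Hp at 28 days, and why these values moved was not tested.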

Other observations

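Bins with Saa3 and Steap4 outside the lesion also carried the mural list (Pdgfrb, Rgs5, Vtn, Kcnj8, Abcc9, Acta2, Tagln and Myh11, genes of pericytes and vascular smooth muscle). On the injured side outside the zone at 3 days the list stood at a log2 ratio of 2.76 (2.43 to 3.05) in the 30 bins with Saa3. These bins were clustered, with 7 of 13 UMIs of the first 250 µm in 1 tile and 13 of 21 UMIs from 500 to 1000 µm in another, so few places carry this value. Acta2 stood at 3.69 in them (29 UMIs) and Rgs5 at 2.00 (13 UMIs). Inside the 28 day zone Rgs5 was lower in bins of Ptx3 (-1.76), Hp (-1.38), Steap4 (-1.24) and Lcn2 (-0.92). Its intervals there included 0 for Saa3, Serpina3n and Chil1. On the opposite side Steap4 bins stood at 1.79 (1.29 to 2.22) at 3 days and 2.76 (2.37 to 3.10) at 28 days. The same Steap4 bins carried the choroid plexus list at 4.19 and 4.07. Hp bins of the opposite side held the ependymal list at 5.67 at 3 days and 4.94 at 28 days, and Lcn2 bins there held the mural list at 2.38 (1.90 to 2.79) at 3 days and 1.92 (1.29 to 2.43) at 28 days.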
